A study of Homo sapiens with 24 samples.

Results

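Chromosome 19 carries the largest collection of zinc finger genes in the human genome. The genes described here are its protein-coding genes named ZNF or ZFP with a number, selected by symbol, chromosome and a minimum level of 10 counts in at least 3 of the 24 libraries. Of 254 such genes in the annotation (GENCODE release 44), all were in the count table, 198 met the minimum and 56 did not. The whole table held 60675 gene identifiers, and 2 of the 56 genes below the minimum had no count in any library. The cells were MIA PaCa-2, an established line from a human pancreatic ductal adenocarcinoma (PDAC), carrying the lentiviral vector pCW57 with a doxycycline-responsive Tet-On promoter. C/EBPδ-inducible cells (CEBPD in the labels) held the CEBPD cDNA behind that promoter and the fluorophore mVenus, and were a pool of a few clones, whereas control (CTRL) cells held the same vector without the cDNA and the fluorophore mCherry. Both lines were sampled at 0, 8, 24 and 48 h of doxycycline (2 µg/ml), with 3 libraries in each of the 8 groups, and the 0 h cells were taken as untreated, although the labels list the dose for them too. Line, fluorophore, clonal origin and CEBPD level, which was higher in inducible cells already at 0 h, go together in this design. They cannot be told apart.

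Most of these genes encode C2H2 zinc finger proteins, in which each finger is a short loop held by a zinc ion and reads a few bases of DNA. Many also carry a KRAB domain, which recruits the corepressor TRIM28 and with it the histone H3K9 methyltransferase SETDB1, so that the bound locus is packed into heterochromatin. KRAB zinc finger genes arose by repeated tandem duplication, lie side by side in clusters, and many of their proteins bind and silence transposable elements.

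In the longest open reading frame of each gene, 188 of the 198 genes (94.9%) held 5 or more C2H2 fingers, against 2.92% of 19694 protein-coding genes of the genome. The median was 12.5 fingers and the maximum 31, in ZNF91, which silences SVA retrotransposons. A simple KRAB box pattern was found in 153 genes (77.3%), against 1.65% of the protein-coding genes. ZFP36, which encodes the mRNA decay factor tristetraprolin, carries the name but has a different type of finger and held 0 of the C2H2 type.

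The promoters of 4 genes at the floor of detection in inducible cells and of 2 neighbours that were not are shown to place the expression results beside the DNA. Each is the last 120 bases before the transcription start in RefSeq (GRCh38.p14), read on the strand of the gene, with the 7-base word CCAATCA or its reverse complement in capitals. ZNF85 lies at chr19:20923131-20923250 (plus strand), ZNF429 at chr19:21505482-21505601 (plus), ZNF101 at chr19:19668719-19668838 (plus), ZNF136 at chr19:12162976-12163095 (plus), ZNF442 at chr19:12365684-12365803 (minus) and ZNF564 at chr19:12551483-12551602 (minus).
ZNF85: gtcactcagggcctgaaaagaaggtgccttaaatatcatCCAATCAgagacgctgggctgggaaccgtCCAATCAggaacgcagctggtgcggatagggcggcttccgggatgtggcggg
ZNF429: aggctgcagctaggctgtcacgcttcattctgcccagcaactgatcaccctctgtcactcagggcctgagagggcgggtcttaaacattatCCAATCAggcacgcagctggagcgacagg
ZNF101: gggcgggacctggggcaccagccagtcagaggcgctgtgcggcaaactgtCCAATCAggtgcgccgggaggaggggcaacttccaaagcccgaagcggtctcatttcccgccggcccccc
ZNF136: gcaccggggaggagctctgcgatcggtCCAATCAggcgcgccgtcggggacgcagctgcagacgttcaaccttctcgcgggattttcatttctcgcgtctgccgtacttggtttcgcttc
ZNF442: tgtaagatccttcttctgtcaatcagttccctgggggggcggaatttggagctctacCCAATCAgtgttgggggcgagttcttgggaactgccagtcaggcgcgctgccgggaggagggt
ZNF564: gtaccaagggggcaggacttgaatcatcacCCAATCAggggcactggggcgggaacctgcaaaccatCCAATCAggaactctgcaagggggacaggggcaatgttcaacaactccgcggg
ZNF85, ZNF429, ZNF136 and ZNF442 were at the floor of detection in the C/EBPδ-inducible cells, whereas ZNF101 and ZNF564 were present in both lines. The stretch printed for ZNF429 lies inside the annotated bounds of that gene given below. Its RefSeq start is therefore downstream of the first base of the gene as annotated.

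The libraries held between 12731237 and 22598595 counts on genes. CEBPD itself, which checks the labels, had a mean of 3.95 CPM (counts divided by the scaled library total) ± 0.247 (SD, n = 3) in CTRL cells at 0 h and of 21.6 ± 2.36 in inducible cells at 0 h. With doxycycline it ranged between 199.99 and 322 CPM in the 9 inducible libraries and between 1.32 and 4.43 CPM in the 9 CTRL libraries. The lines also differed in cell type markers. The summed level of 6 epithelial markers was 2070 to 2950 CPM in CTRL libraries and 116 to 209 CPM in inducible libraries, that of 5 duct markers was 179 to 218 and 64.2 to 107 CPM, and that of 4 fibroblast markers was 449 to 689 and 136 to 253 CPM. Members of a list did not all move together. KRT8, KRT18 and KRT19 carried the epithelial sum, and CDH1, which encodes E-cadherin, was lower in inducible cells at 0 h (log2 difference -3.03) and higher at 8 h (2.77) and 48 h (1.88; edgeR adjusted p = 0.006393, 4.097e-05 and 0.001446). COL1A2 carried the fibroblast sum, while COL1A1, at no more than 1.86 CPM, was higher (0.97, edgeR adjusted p = 0.0002542). Of the mesenchymal pair, VIM was lower (6789 and 5759 CPM, log2 difference -0.24) and ZEB1 higher in inducible cells (95.1 and 174 CPM, 0.87), with edgeR adjusted p of 5.242e-19 and 2.651e-19. All 5 acinar and islet markers were at 3 counts or fewer in every library, and so were the duct marker CFTR and the fibroblast marker DCN. The markers that differed did so between the same lines as the zinc finger genes, and their part in the line differences given here was not tested. In bulk RNA, fewer cells that express a gene and less RNA per cell cannot be told apart.

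Zinc finger genes on chromosome 19 were lower in C/EBPδ-inducible cells than in CTRL cells far more often than higher. This was so at 0 h, before doxycycline, when CEBPD already stood at 21.6 CPM in inducible and 3.95 CPM in CTRL cells. In the edgeR quasi-likelihood test at a Benjamini-Hochberg false discovery rate (FDR) of 0.01, 83 of the 198 genes were lower and 17 higher at 0 h. Among all 17023 genes tested, 19.5% were lower and 16.8% higher. At 8 h, 73 were lower and 17 higher (all genes: 20.3% and 19.1%). At 24 h, 78 were lower and 12 higher (20.9% and 18.1%), and at 48 h, 79 were lower and 20 higher (21.0% and 19.3%). The median log2 difference of the 198 genes was -0.233, -0.216, -0.209 and -0.198 at the 4 times, while that of all genes lay between 0.005 and 0.022. These values include 29 genes that met the minimum level in CTRL libraries only, a choice that favours lower values in inducible cells. Among the 168 genes that met it in both lines, 58 were lower and 17 higher at 0 h. At 8 h, 49 of them were lower and 17 higher, at 24 h 53 and 12, and at 48 h 52 and 20. Their medians were -0.145, -0.111, -0.137 and -0.068. Analysis of variance gene by gene (log2(CPM + 1)), the kind of test named in the study's methods, called fewer of the 198 genes, with 51 lower and 4 higher at 0 h. The share of all genes called by that test is not given here, so nothing is read from these counts.

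Averaged over the 4 time points, 103 genes (52.0%) were lower and 31 (15.7%) higher, against 29.1% and 29.9% of all genes. The large differences in this average went in one direction. A fall of more than 2-fold was called for 49 genes (24.7%), against 5.42% of all genes, and a rise of more than 2-fold for 0, against 4.13% of all genes. DESeq2 also called 0 such rises, and 0 had an unadjusted edgeR p under 0.05. At 0 h alone, edgeR called 1 rise of more than 2-fold (0.505%, against 3.63% of all genes), and DESeq2 called 1. Libraries of the lines did not overlap in 60 genes (30.3%), against 15.6% of all genes. In 57 of the 60 every inducible library was the lower, and in 3 (ZNF333, ZNF146 and ZNF473) every inducible library was the higher.

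The minimum level itself favours genes that differ, since 29 of the 198 genes met it in CTRL libraries only and 1 in inducible libraries only. Among the 168 genes that met it in both lines, 74 (44%) were lower and 31 (18.5%) higher over the 4 time points, and 22 (13.1%) were lower by more than 2-fold. Their median log2 difference was -0.11. ZNF223, ZNF114 and ZNF28 were just inside the minimum, with 10 counts or more in 3 libraries and at most 16 counts in any, and ZNF709 and ZNF418 were just outside it, with at most 11 counts.

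Zinc finger genes of other chromosomes and other genes of chromosome 19 are given beside these counts, with no test of the difference. Of 233 ZNF and ZFP genes tested on other chromosomes, 81 were lower and 65 higher over the 4 time points, and 10 (4.29%) were lower by more than 2-fold. Of 748 other protein-coding genes tested on chromosome 19, 209 were lower and 271 higher, and 23 (3.07%) were lower by more than 2-fold. The median log2 differences of these lists were -0.01 and 0.036.

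Positions along the chromosome are described next. When the chromosome was split wherever the starts of neighbouring genes were more than 1 Mb apart, 15 positional groups arose. Group 5, from ZNF101 to ZNF254 (chr19:19668796-24129968, GRCh38), had 18 of its 20 genes lower and a median log2 difference of -2.30. Group 3, from ZNF653 to ZNF791 (chr19:11483427-12640098), had 12 of 15 lower and a median of -1.18. Group 14, from ZNF175 to ZNF331 (chr19:51571283-53580269), had 21 of 29 lower, 2 higher and a median of -0.82. Group 15, from ZNF628 to ZNF446 (chr19:55476617-58481230), the most populous with 52 genes, had 22 lower, 10 higher and a median of -0.11. The longest unbroken run of lower genes held 13, from ZNF14 to ZNF100 over 2.06 Mb in group 5, followed by 11 from ZNF627 to ZNF443 over 0.882 Mb in group 3 and 10 from ZNF611 to ZNF331 over 0.877 Mb in group 14. These values include the genes that met the minimum level in CTRL libraries only. Among the 168 genes that met it in both lines, a set chosen after seeing the data, group 5 had 9 of 11 lower with a median log2 difference of -0.74, group 3 had 6 of 9 lower with -0.48, group 14 had 13 of 21 lower with -0.48, and group 15 had 20 of 50 lower with -0.09. The longest runs of lower genes then held 6 in group 14 and 5 each in groups 5 and 3.

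**Figure D1:**
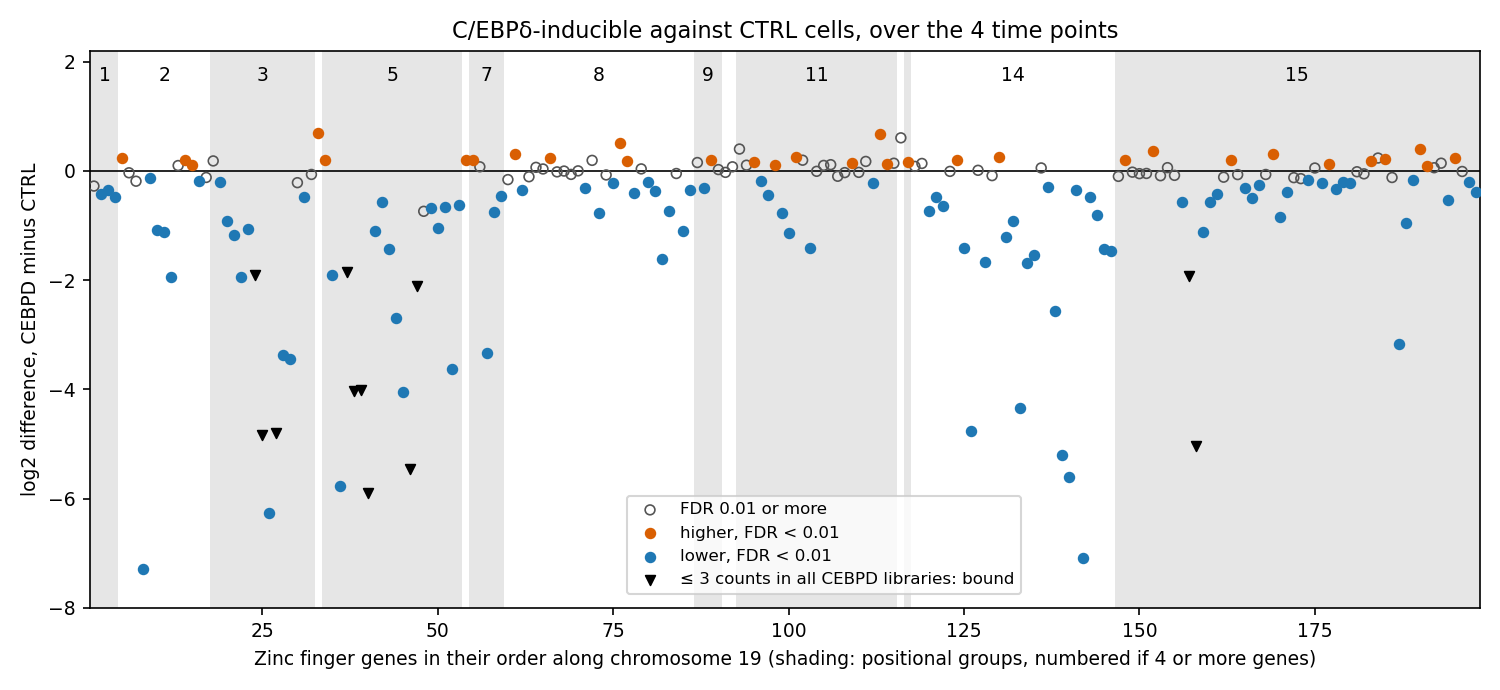
The log2 difference between C/EBPδ-inducible and CTRL cells over the 4 time points is plotted for the 198 genes in their order along chromosome 19, with positional groups shaded in turn. Filled circles passed an FDR of 0.01 (103 lower, the 11 floor genes among them, and 31 higher), open circles did not, and triangles mark the 11 floor genes at the bound that 3 counts per library allow. The deep differences lie mainly in groups 3, 5 and 14.

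The other groups had smaller median differences. Group 8 (ZNF565 to ZNF573) had 11 of 27 genes lower, 4 higher and a median log2 difference of -0.07, and group 11 (ZNF575 to ZNF296) had 6 of 23 lower, 6 higher and a median of 0.10. Group 2 (ZNF557 to ZNF846) had 6 of 13 lower and 3 higher, among them 4 that were lower by more than 2-fold. Group 1 had 3 of 4 lower, group 7 had 3 of 5 lower and 1 higher, group 9 had 1 of 4 in each direction, and neither of the 2 genes of group 10 was called. The single genes ZNF333, ZNF507 and ZNF473 were higher, and ZNF114 was not called. The other protein-coding genes tested that start within the bounds of a group were few in many groups. Group 3 held 3, of which 2 were higher, group 14 held 3, of which 1 was lower, and group 5 held 0. Groups 1, 7 and 8, with smaller median differences, also held 0, whereas group 2 held 31, group 11 held 19 and group 15 held 16.

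Summed over its genes, group 5 reached 272.9 CPM ± 32.29 (SD over 12 libraries) in CTRL cells and 136.8 ± 14.42 in inducible cells, which is 50.1% of the CTRL level, with ranges of 216.7 to 336.5 and 118.3 to 156 CPM that did not overlap. Group 3 fell to 56.0% (146.8 ± 5.235 and 82.19 ± 4.675 CPM) and group 14 to 76.7% (312.9 ± 11.47 and 240.1 ± 10.24 CPM). Group 15 stood at 98.7% of the CTRL level. These sums include genes that met the minimum level in 1 line only, 9 in group 5, 6 in group 3, 8 in group 14 and 2 in group 15. No sums were made without them. Over all 198 genes the sum was 3036 ± 79.35 CPM in CTRL and 2776 ± 69.56 CPM in inducible libraries, and the ranges, 2866 to 3185 and 2685 to 2893 CPM, overlapped.

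**Figure D2:**
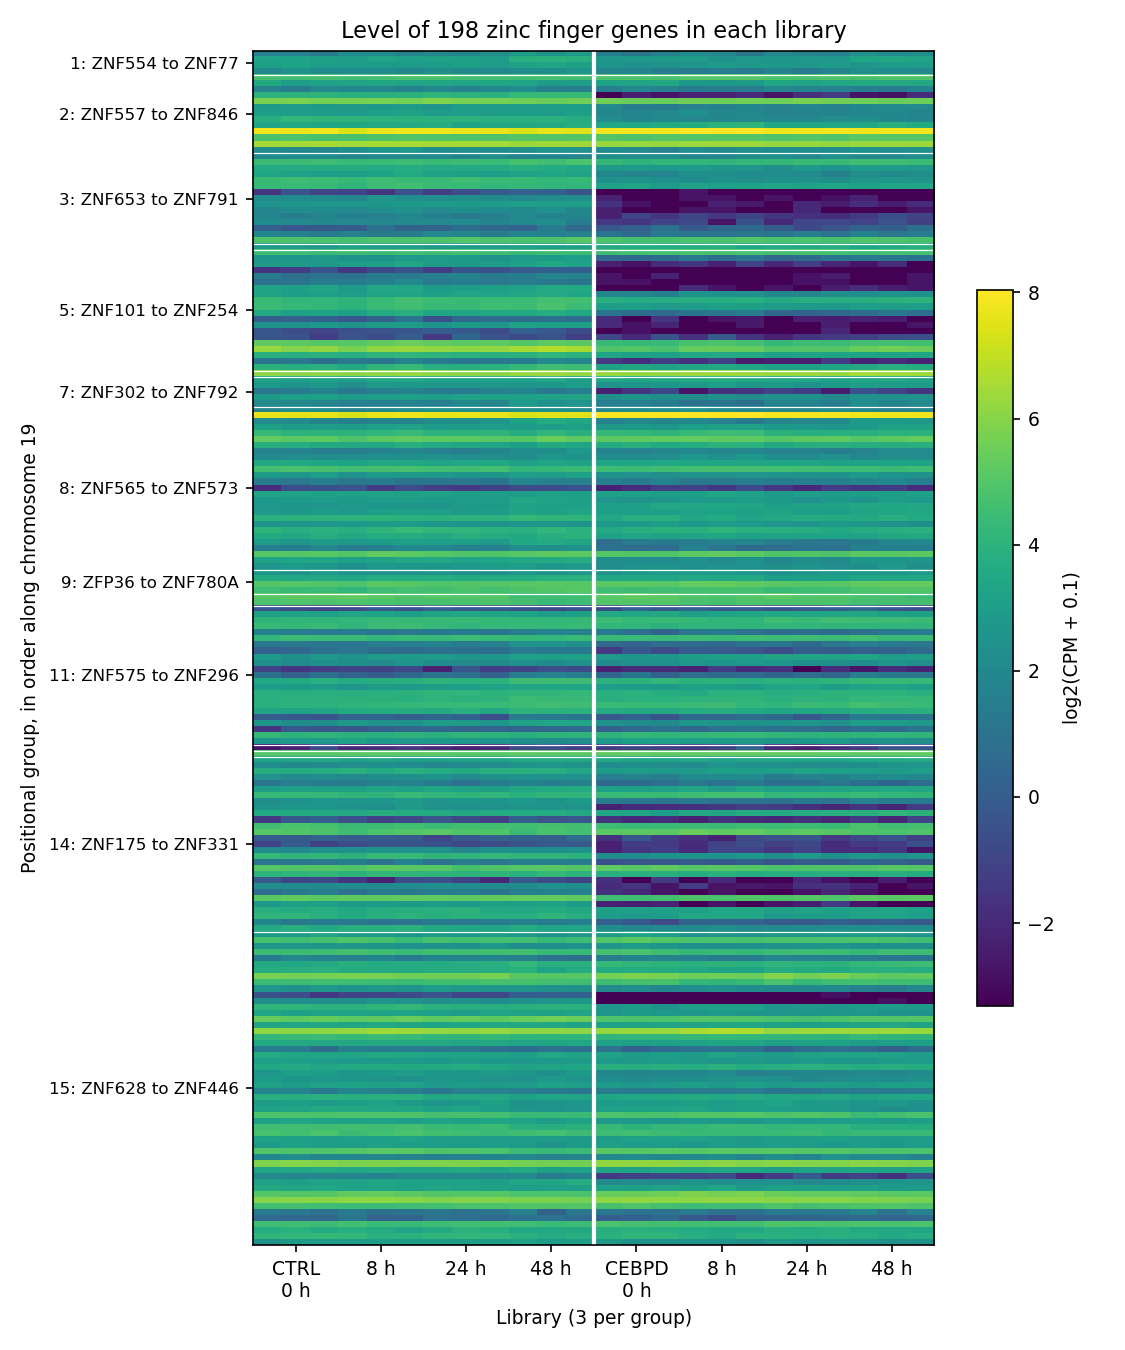
Each row is 1 of the 198 genes, ordered along chromosome 19, each column is 1 of the 24 libraries, and colour gives log2(CPM + 0.1), with white lines between lines and between positional groups. The dark bands of groups 3, 5 and 14 run across all 12 inducible libraries, where CTRL libraries are lighter. CTRL libraries held 0 genes without a count, and inducible libraries 4 to 13.

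The inducible line had 11 genes at the floor of detection, taken as 3 counts or fewer in each of its 12 libraries. These are 5.56% of the 198 genes, against 0.388% of all genes tested, and 0 of the 198 were at this floor in CTRL cells, against 0.317% of all genes. All 11 met the minimum level through CTRL libraries alone, so that the choice of genes fixed their direction, and nothing is read from this share. Of the 11, 6 lay in group 5 (ZNF93, ZNF737, ZNF66, ZNF85, ZNF429 and ZNF100), 3 in group 3 (ZNF433, ZNF136 and ZNF442) and 2 side by side in group 15 (ZNF471 and ZFP28). Their summed level was 31.77 to 46.02 CPM in CTRL libraries and 0.0786 to 0.529 CPM in inducible libraries.

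ZNF85 (chr19:20923222-20950697) had 7.09 to 12.4 CPM in CTRL libraries, with a median of 9.37, and 0 to 0.17 CPM in inducible libraries, with a total of 13 counts over all 12. The lines were far apart, and ZNF85 was at least 59.9-fold lower in inducible cells (floor of 3 counts per library). ZNF429 (chr19:21496682-21556270) ranged from 5.53 to 9.29 CPM in CTRL libraries, with a median of 6.90, and from 0 to 0.16 CPM in inducible libraries, at least 43.9-fold lower. ZFP28 (chr19:56538948-56556808) ranged from 4.49 to 6.27 CPM in CTRL libraries, with a median of 5.21, and had 1 count over all inducible libraries, at least 32.8-fold lower. None of these 3 genes shared more than 4.56% of its 50-base windows with another gene, although ZNF429 overlaps exons of LINC00664 and of an antisense gene, whose reads could not be told from its own.

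ZNF136 (chr19:12163064-12189871) had 3.74 to 5.93 CPM in CTRL libraries (median 4.59) and 8 counts over all inducible libraries, at least 28.5-fold lower. ZNF442 (chr19:12345944-12365905), its neighbour in group 3, had 3.53 to 5.29 CPM in CTRL libraries (median 4.51) and also 8 counts in all, at least 28.0-fold lower. ZNF737 and ZNF66 had medians of 2.60 and 2.56 CPM in CTRL libraries and were at least 16.3-fold and 16.1-fold lower. The remaining 4 were low in CTRL cells too. ZNF93, whose protein binds and silences L1 retrotransposons, had 0.224 to 0.949 CPM in CTRL libraries and no count in any inducible library, which allows only a bound of 3.60-fold. ZNF100, ZNF471 and ZNF433 had bounds of 4.31-fold, 3.78-fold and 3.76-fold.

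**Figure D3:**
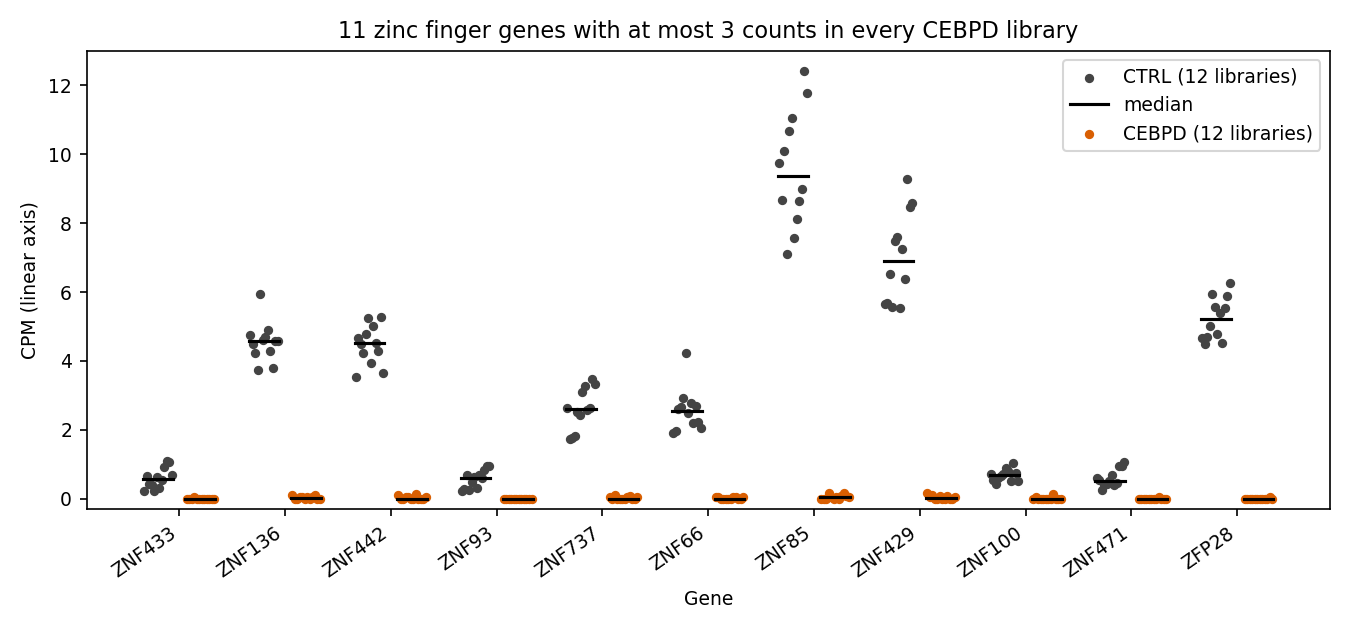
CPM of the 11 genes at the floor is shown for each of the 12 CTRL and 12 C/EBPδ-inducible libraries on a linear axis, with black bars at the medians. The CTRL points of ZNF85 reach 12.4 CPM, and no inducible library exceeds 0.17 CPM for any of the 11 genes.

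ZNF558, ZNF347 and ZNF44 lay just above this floor, with at most 7 counts in an inducible library, so that their fitted log2 differences rest on few counts and are not comparable with the bounds above. ZNF558 (group 2) had 14.6 to 19.8 CPM in CTRL libraries, with a median of 16.2, and 0 to 0.309 CPM in inducible libraries (log2 difference -7.29 ± 0.10 SE, edgeR adjusted p = 1.449e-27). ZNF347 (group 14) had 6.48 to 9.58 CPM in CTRL libraries, with a median of 7.33, and 0 to 0.309 CPM in inducible libraries (-7.08 ± 0.17, edgeR adjusted p = 1.5e-22). ZNF44 (group 3) had 5.66 to 8.34 CPM in CTRL libraries, with a median of 7.05, and 0 to 0.213 CPM in inducible libraries (-6.26 ± 0.15, edgeR adjusted p = 1.27e-22). In these 3 genes the lowest CTRL library lay above the highest inducible library by a wide margin. All 3 met the minimum level through CTRL libraries alone, with 10 counts in 0 inducible libraries, so the choice of genes fixed their direction. Nothing is read from their p-values or from this separation.

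Next to these deep falls lay genes with small or no differences. In group 5, ZNF91 had 52.0 to 105.8 CPM in CTRL and 27.1 to 48.5 CPM in inducible libraries (log2 difference -1.05 ± 0.05, edgeR adjusted p = 1.278e-15). ZNF101, at the edge of that group, was higher, with 20.3 to 23.8 CPM in CTRL and 22.9 to 27.8 CPM in inducible libraries (0.19 ± 0.03, edgeR adjusted p = 2.446e-06). In group 3, ZNF564 had 0.719 to 2.47 CPM in CTRL and 0.477 to 1.86 CPM in inducible libraries and ZNF791 had 26.5 to 33.9 and 26.0 to 31.3 CPM, and neither passed the test (edgeR adjusted p = 0.302 and 0.11). In group 14, ZNF841 (4.91 to 6.76 CPM in CTRL, 0.107 to 0.314 CPM in inducible libraries) lay within a stretch that also held ZNF616, which had a log2 difference of 0.01 ± 0.05.

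The higher genes differed less. Only 11 genes were called higher over the 4 time points and had higher inducible libraries without overlap within each time point, and the rule for naming the 12 with the largest difference therefore names them all: ZNF333, ZNF585B, ZNF274, ZNF749, ZNF146, ZNF557, ZNF587, ZNF101, ZNF507, ZNF780B and ZNF473. ZNF333 (group 4, chr19:14689801-14733746) had 6.48 to 9.06 CPM in CTRL and 10.4 to 14.2 CPM in inducible libraries (log2 difference 0.70 ± 0.05 SE, edgeR adjusted p = 1.258e-11). Its exons overlap those of ADGRE2 and ADGRE3 on the opposite strand, and the strand setting of the counting is not given in the sources used here. ZNF274, which guides SETDB1 to the 3′ ends of zinc finger genes, had 28.0 to 40.4 CPM in CTRL and 35.2 to 56.9 CPM in inducible libraries (0.41 ± 0.03, edgeR adjusted p = 3.326e-12). ZNF473, a factor in histone mRNA 3′ end processing, had 31.5 to 36.4 and 36.6 to 40.1 CPM (0.17 ± 0.02, edgeR adjusted p = 1.562e-07).

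Per kilobase of exon, the highest genes in the set were ZNF146, ZNF121, ZNF460, ZNF787 and ZNF428. ZNF146, a protein made almost entirely of fingers and without a KRAB domain, stood at 46.4 CPM per kb in CTRL and 57.6 CPM per kb in inducible cells, against a median gene of 1.51 CPM per kb over all libraries. In CPM, it had 165.8 to 213.5 in CTRL and 216 to 263.9 in inducible libraries (log2 difference 0.31 ± 0.03, edgeR adjusted p = 3.104e-10), and the lines did not overlap. None of the 5 was lower in inducible cells, and ZNF787 did not pass the test (edgeR adjusted p = 0.0927).

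The line differences repeated at each time point in separate libraries. Across the 187 genes above the floor, the log2 difference at 0 h correlated with that at 8, 24 and 48 h with Pearson's r of 0.957, 0.968 and 0.953, over genes that are not independent of each other. Spearman's rho over these genes was 0.876, 0.883 and 0.856. Among the 168 genes that met the minimum level in both lines, r was 0.911, 0.915 and 0.918 and rho 0.831, 0.845 and 0.804. Across all genes tested, r was 0.795, 0.873 and 0.793 and rho 0.695, 0.762 and 0.714. Of the 101 genes called lower at any time, 59 were called at all 4. Of the 30 genes that met the minimum level in 1 line only, 24 to 27 were called lower at each time. How many of all genes were called at all 4 times was not counted, so nothing is read from these numbers. Of the 32 called higher at any time, 5 were called at all 4 (ZNF146, ZNF274, ZNF333, ZNF507 and ZNF585B). ZNF358 was the 1 gene called in both directions, lower at 8 h (log2 difference -0.60, edgeR adjusted p = 0.00028) and higher at 48 h (0.42, edgeR adjusted p = 0.003264).

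**Figure D4:**
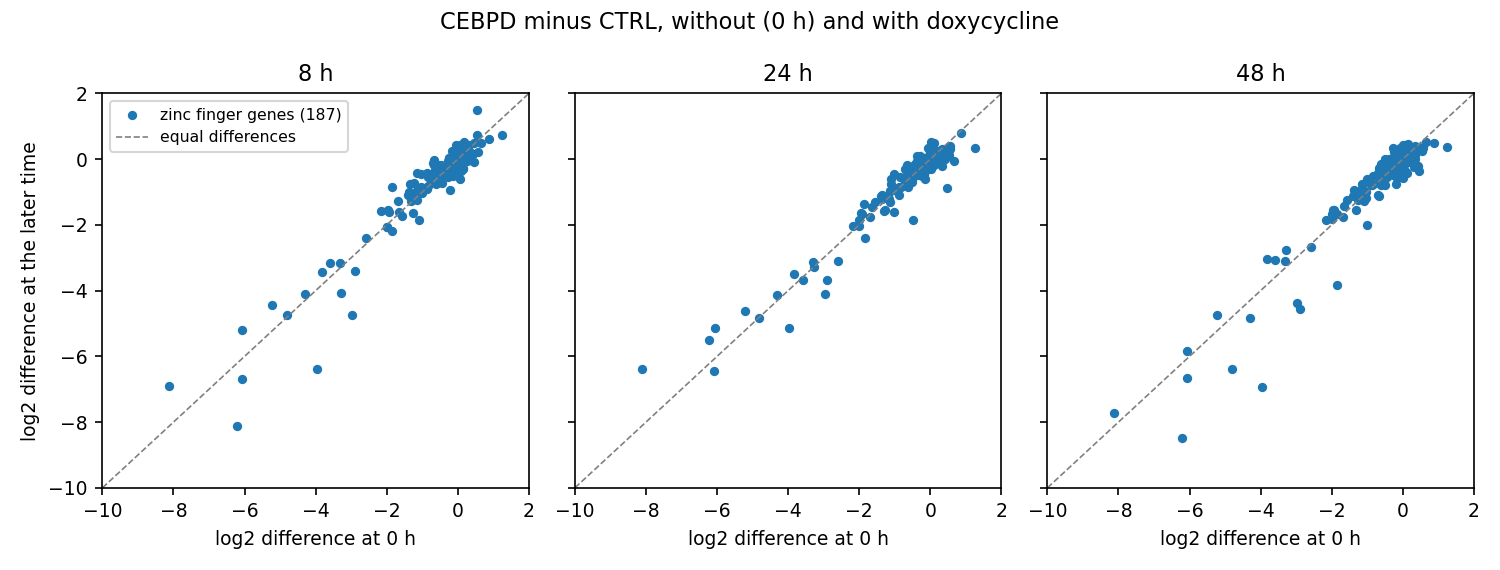
The log2 difference between C/EBPδ-inducible and CTRL cells at 0 h (x axis) is plotted against that at 8, 24 and 48 h (y axis, 1 panel each) for the 187 genes above the floor. Points follow the dashed line of equal differences in all panels (Pearson's r of 0.957, 0.968 and 0.953).

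The changes at 8 and 24 h of doxycycline depended on the libraries and genes included. In inducible cells, 11 rose and 7 fell by 8 h, so that 9.09% were called, against 18.4% of all genes. The share was 5.56% without CEBPD 0 h replicate 2 or CEBPD 8 h replicate 1 or 2, and 15.8% among the genes with no exon overlap and under 10% of shared windows. By 24 h, 3 rose and 3 fell (3.03% against 10.4% of all genes), namely ZNF230, ZNF616 and ZNF160 up and ZNF546, ZNF83 and ZNF587 down. This share was 1.01% without CEBPD 0 h replicate 3 and 1.52% without CEBPD 24 h replicate 3. Of the 30 genes that met the minimum level in 1 line only, 0 were called in inducible cells at 8 or 24 h. In CTRL cells, ZNF846, ZNF235, ZNF274 and ZNF460 rose by 8 h (4 genes, 2.02% against 7.22% of all genes). None was called lower there by edgeR or DESeq2, and 7 had a lower value at an unadjusted edgeR p under 0.05. By 24 h, ZNF235, ZNF224 and ZNF227 rose and ZNF550 fell (2.02% against 3.42%). Without CTRL 0 h replicate 2 or CTRL 8 h replicate 2, 0 were called at 8 h, and without any 1 of the 6 CTRL libraries 0 or 0.505% were called at 24 h. The other protein-coding genes of chromosome 19 moved at 8 h in inducible cells, with 253 of 748 lower and 19 higher and a median log2 change of -0.194, while the median of the zinc finger genes was 0.097.

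The named changes with doxycycline in inducible cells were small. ZNF430 (group 5) rose by 8 h from 3.37 CPM ± 0.387 to 5.46 ± 0.209 (SD, n = 3; log2 change 0.69 ± 0.13 SE, edgeR adjusted p = 0.0002894), and in CTRL cells it stood at 8.63 ± 0.553 and 9.276 ± 1.084 CPM. ZNF628 fell from 8.32 ± 1.04 to 5.46 ± 0.233 CPM (-0.61 ± 0.12, edgeR adjusted p = 0.0005883) and ZNF358 from 10.2 ± 0.597 to 6.78 ± 0.456 CPM (-0.59 ± 0.12, edgeR adjusted p = 0.000794). By 24 h, ZNF230 rose from 6.45 ± 0.438 to 9.60 ± 0.259 CPM (0.57 ± 0.11, edgeR adjusted p = 0.0003626).

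By 48 h the changes were more numerous. In CTRL cells 39 genes rose and 20 fell (29.8% called, against 33.2% of all genes), and in inducible cells 23 rose and 14 fell (18.7% against 28.7%). Of these, 30 genes were called in both lines, all 30 in the same direction, with 17 up and 13 down. Another 36 were called in 1 line, and in 5 of them the estimate in the other line had the opposite sign (ZNF429, ZNF473, ZNF543, ZNF546 and ZNF681). In inducible cells the estimates of ZNF473 (-0.003 ± 0.043 SE), ZNF543 (0.02 ± 0.07) and ZNF546 (-0.01 ± 0.08) lay within their SE of 0. ZNF429 was at the floor there, so its sign is not read. ZNF681 rose in CTRL cells (log2 change 0.81, edgeR adjusted p = 0.005758) and had an estimate of -0.87 in inducible cells that did not pass the test (edgeR adjusted p = 0.2592). The shares called stand near or below those of all genes. The lines have their own 0 h libraries, and cells at 48 h had also been 48 h longer in culture.

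Among all genes, 16.9% rose and 16.3% fell in CTRL cells and 14.8% rose and 13.9% fell in inducible cells, and the groups' counts are given beside these shares without a test. Group 11, around ZNF221 and ZNF233, had 12 of 23 genes up and 1 down in CTRL cells and 7 up and 1 down in inducible cells. Group 15 had 13 of 52 down and 3 up in CTRL cells and 10 down in inducible cells, and 9 of its genes were down in both. In group 5, 5 of 20 rose in CTRL cells and 2 in inducible cells, and 9 of the 20 met the minimum level in 1 line only. ZFP14 (group 8) had 3.40 to 4.37 CPM at 0 h and 9.43 to 12.8 CPM at 48 h in CTRL cells (log2 change 1.46 ± 0.13 SE, edgeR adjusted p = 1.347e-09). In inducible cells it had 3.20 to 3.85 CPM at 0 h and 6.37 to 6.69 CPM at 48 h (0.89 ± 0.14, edgeR adjusted p = 1.423e-05). ZNF233 had 0.680 to 0.897 CPM at 0 h and 2.00 to 2.45 CPM at 48 h in CTRL cells, and 0.676 to 1.05 and 2.12 to 2.44 CPM in inducible cells (log2 change 1.52 ± 0.26 and 1.38 ± 0.25). In both genes the 48 h libraries lay above the 0 h libraries in each line. ZNF530 (group 15) fell from 10.4 ± 1.28 to 6.03 ± 0.429 CPM in CTRL cells and from 9.32 ± 0.177 to 5.17 ± 0.376 CPM in inducible cells (log2 change -0.86 ± 0.11 in inducible cells, edgeR adjusted p = 6.066e-07).

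**Figure D5:**
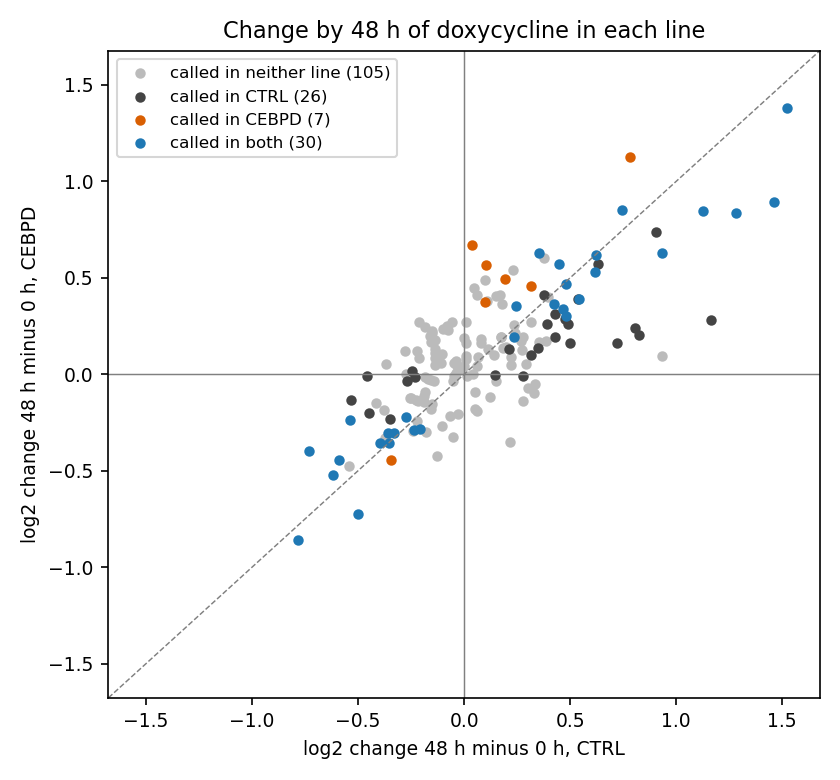
The log2 change from 0 to 48 h in CTRL cells (x axis) is plotted against that in C/EBPδ-inducible cells (y axis) for the 168 genes that met the minimum level in both lines, coloured by the line in which they passed an FDR of 0.01. The 30 genes called in both lines lie where both changes are positive or both are negative, and 26 genes were called in CTRL cells alone and 7 in inducible cells alone.

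Few changes were called as different between the lines. The interaction of line and time was called for ZNF765 at 8 h (1 gene, 0.505%, against 2.59% of all genes), ZNF235 at 24 h (0.505% against 3.54%) and 5 at 48 h (2.53% against 5.91%). The 30 genes that met the minimum level in 1 line only gave 0 of these calls, and their few counts in the other line limit this test. Among the 168 genes that met it in both lines, 0.595% were called at 8 h and at 24 h. At 48 h, 1.79% of the 168 had a positive and 1.19% a negative interaction. The call at 8 h was lost without any 1 of CTRL 0 h replicate 2, CTRL 8 h replicates 1 and 2, CEBPD 0 h replicates 2 and 3 and the 3 CEBPD 8 h libraries, and 2.02% were called without CTRL 8 h replicate 3. The call at 24 h held only without CTRL 0 h replicate 3, CTRL 24 h replicate 3 or CEBPD 24 h replicate 3, and was lost without any 1 of the other 9 libraries. ZNF160 (group 14) had 35.2 to 38.0 CPM in CTRL cells at 0 h and 37.1 to 40.0 CPM at 48 h, while in inducible cells it had 23.3 to 24.6 CPM at 0 h and 33.5 to 36.7 CPM at 48 h. Its line difference was smaller at 48 h (interaction log2 0.46 ± 0.08, edgeR adjusted p = 0.0001875). ZNF616, near it in group 14, had 11.97 to 12.28 CPM at 0 h and 11.65 to 12.99 CPM at 48 h in CTRL cells, and 7.94 to 11.3 and 14.8 to 17.0 CPM in inducible cells (interaction 0.63 ± 0.14, edgeR adjusted p = 0.00238). ZNF224, a KRAB repressor encoded in group 11, had 10.9 to 13.8 CPM at 0 h and 21.8 to 22.1 CPM at 48 h in CTRL cells, and 15.8 to 18.5 and 18.8 to 19.8 CPM in inducible cells (interaction -0.62 ± 0.11, edgeR adjusted p = 0.0004364).

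The frequency of KRAB domains and the CG content of promoters varied between classes of line difference, and are given as a description without a test. The KRAB pattern was found in 46 of the 49 genes that were lower by more than 2-fold (93.9%), in 46 of 54 that were lower by less (85.2%), in 41 of 64 that were not called (64.1%) and in 20 of 31 that were higher (64.5%). The median number of fingers was highest, 14, in the first of these classes and lowest, 10, in the last. RefSeq promoters of 176 of the 198 genes could be matched, and their 250 bases before the start held a median of 16.5 CG dinucleotides, against 11 in 35116 promoters of the genome. The median was 8 in the 9 matched floor genes, 12 in the genes lower by more than 2-fold, 16.5 in those lower by less, 19 in those not called and 16 in the higher genes. ZNF429 held 5, ZNF85 8, ZNF442 10 and ZNF136 18, and the neighbours that were not lower, ZNF564 and ZNF101, held 8 and 14. Of the 49 genes lower by more than 2-fold, 27 met the minimum level in 1 line only, and the floor genes met it through CTRL libraries alone. The classes also differed in level. Median CTRL levels were 0.859, 1.83, 2.08 and 4.36 CPM per kb from the genes lower by more than 2-fold to the higher genes. Nothing about the line difference is read from these features.

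The word CCAATCA, searched on both strands after the printed promoters had been seen, contains the CCAAT box bound by the trimeric factor NF-Y. It was found in 6.62% of all promoters and in 37 of the 176 (21.0%). It was present in 21 of 41 promoters of genes lower by more than 2-fold (51.2%) and in 16 of 135 of the others (11.9%), and in all 9 matched floor genes. Genes that met the minimum level in CTRL libraries only are among the 41, and they were not set apart. The presence of the word goes with position. All 18 matched promoters of group 5 and 13 of 15 of group 3 held the word, and outside these groups 6 of 143 did, none of which belonged to a gene lower by more than 2-fold. Group 14 had 11 of 25 matched genes lower by more than 2-fold and held it in 0 promoters. Tandem duplicates share promoter sequence, so these genes are not independent of each other. The shorter CCAAT, which the word includes, was in 32.0% of all promoters and 47.2% of those of the 176 genes. TTGCNNAA, a loose form of the C/EBP consensus, was in 9.05% of all promoters, in 8 of the 176 (4.55%) and in 0 of the 41 promoters of genes lower by more than 2-fold.

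Of the genes that act with KRAB zinc finger proteins, 34 cofactors and chromatin regulators were tested. At 0 h, 7 were higher and 7 lower in inducible cells, against 16.8% and 19.5% of all genes. Over the 4 time points 17 were higher and 9 lower, against 29.9% and 29.1% of all genes, with a median log2 difference of 0.092. TRIM28, the KRAB corepressor, was at 599.5 CPM ± 100.3 (SD over 12 libraries) in CTRL and 732.1 ± 99.82 in inducible cells (log2 difference 0.30 ± 0.03 SE), and SETDB1 at 46.1 ± 3.24 and 49.99 ± 2.587 CPM (0.12 ± 0.03). The heterochromatin protein gene CBX5 was higher (383.1 ± 34.22 and 443.4 ± 37.03 CPM). The de novo DNA methyltransferase DNMT3A was lower (28.0 ± 8.14 and 16.5 ± 5.75 CPM, log2 difference -0.79 ± 0.05), and so were the demethylation enzymes TET1 (15.8 ± 5.25 and 9.70 ± 3.43 CPM) and TET2 (45.1 ± 5.28 and 31.9 ± 2.10 CPM), the H3K9 methyltransferase EHMT1 (107.0 ± 1.85 and 74.3 ± 3.57 CPM) and the HUSH complex gene MPHOSPH8 (79.9 ± 4.93 and 60.5 ± 3.38 CPM). TET3 was higher (77.3 ± 5.90 and 104.5 ± 9.20 CPM). All 9 differences named here passed an FDR of 0.01 in the edgeR test.

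The imprinted domain of 19q13.4, where PEG3 and its neighbours are expressed from the paternal copy, lies next to ZNF471 and ZFP28 in group 15. PEG3, ZIM2, USP29 and MIMT1 had no count in any library, and ZIM3 had at most 1. ZNF264 had 36.1 to 47.6 CPM in CTRL and 25.8 to 33.0 CPM in inducible libraries (log2 difference -0.43 ± 0.03, edgeR adjusted p = 1.544e-11). The imprinted gene ZNF331, at the far end of group 14, had 10.4 to 15.1 CPM in CTRL and 3.71 to 4.90 CPM in inducible libraries, without overlap (-1.46 ± 0.05, edgeR adjusted p = 1.264e-18).

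Reads of near-identical family members can be split or lost in counting. The median gene shared 4.66% of its 50-base exon windows with another gene, and the maximum was 70.8%, in ZNF57. Exons of 119 of the 198 genes overlap those of another annotated gene, 67 on the opposite strand. Among the 76 genes with no such overlap and under 10% of shared windows, 34 were lower and 3 higher in inducible cells at 0 h, and 41 were lower and 12 higher over the 4 time points. Among all genes tested, 19.5% were lower and 16.8% higher at 0 h, and 29.1% and 29.9% over the 4 time points. Genes that met the minimum level in CTRL libraries only were not set apart here.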

How the data were processed

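RNA was measured in 24 libraries of MIA PaCa-2 cells from triplicate wells. Per the labels and the study's methods, the authors depleted ribosomal RNA, sequenced 50-base reads, used Trimmomatic for trimming, HISAT2 for alignment (GRCh38) and HTSeq for counts per Ensembl gene. The deposited values are raw counts without normalization or filter. The strand setting and the fate of multi-mapped reads are not given in the sources used here.

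Identifiers were matched to GENCODE release 44 (56558 of 60675). Counts were scaled by TMM, filtered with filterByExpr over the 8 groups and fitted with edgeR 4.0.16 (quasi-likelihood, all 24 libraries, R 4.3.3). All 198 genes were among the 17023 tested, and p-values were adjusted over these by Benjamini-Hochberg, with a threshold of 0.01. P-values measure the spread between wells, which may be technical. Replicate libraries differed by more than sampling noise (chi-square per gene 1.66 to 16.7), so none was counted as a repeat. Fold bounds set the inducible line at 3 counts per library. Named genes were the 12 with the largest line difference in each direction among those called with libraries that did not overlap at each time, all genes at the floor, the 5 largest called changes per time comparison and interaction, and the 5 highest per kilobase. Promoters came from RefSeq, and finger and KRAB patterns from the longest open reading frame of GENCODE transcripts. Scripts were tested on simulated data. DESeq2 1.42.0, another scaling, filter or fit, and leaving out each library were tried as alternatives. The genes and lists were chosen with earlier results of these data known.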

Additional observations from a re-analysis of the deposited data

Results flagged for a closer look

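For 6 zinc finger genes the change with doxycycline differed between the lines by the edgeR interaction test, with 3 libraries per group. At 8 h the interaction was 0.72 (log2) for ZNF765, which went from 16.7 ± 1.504 to 14.3 ± 1.96 CPM (SD) in CTRL cells and from 7.63 ± 0.795 to 10.7 ± 0.0694 CPM in inducible cells. ZNF235 had an interaction of -0.52 at 24 h and of -0.56 at 48 h. It stood at 9.28 to 9.98 CPM at 0 h and 15.2 to 16.7 CPM at 48 h in CTRL cells, and at 11.6 to 12.7 and 13.1 to 14.5 CPM in inducible cells. At 48 h the interaction was 0.45 for ZNF850, -0.62 for ZNF224, 0.63 for ZNF616 and 0.46 for ZNF160. ZNF850 had 25.2 to 27.6 CPM at 0 h and 17.8 to 21.1 CPM at 48 h in CTRL cells, and 21.2 to 23.5 and 21.7 to 22.7 CPM in inducible cells. The call of ZNF235 at 24 h was lost with DESeq2, where 0 genes were called.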

How the results depend on the processing

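The 25 genes named for line differences, which were chosen for large differences without overlap or as floor genes, kept their direction and call in all 761 pairs of a gene and an alternative. Of 1256 such pairs over all named genes 134 lost the call, all in time comparisons or interactions, and 0 reversed. The per-gene analysis of variance called 27.8% of the 198 genes at 0, 24 and 48 h and 18.7% at 8 h between the lines, 8.08% for CTRL and 7.07% for inducible cells at 48 h against 0 h, and 0 in the other time comparisons and in the interaction at 8 h. Shares of all genes called by that test are not given here. The fit on the compared groups alone called 0 for CTRL at 8 h and for the interaction at 8 h. DESeq2 called 1.01% for CTRL at 24 h. For the interaction at 24 h, DESeq2, RLE scaling, no filter and the replicate block called 0, and for that at 8 h no filter called 3.03%. Genes with under 10% shared windows and no exon overlap gave 1.32% for CTRL at 8 h, 0 for CTRL at 24 h, 15.8% for inducible cells at 8 h and 0 for both of these interactions. The median log2 difference at 0 h was -0.203 on the compared groups, -0.136 with 10 counts in every library, -0.205 in the analysis of variance and -0.191 with a minimum of 20 counts. The causes of these shifts were not tested. Leaving out 1 library gave 0 to 1.52% for CTRL at 8 h (0 without CTRL 0 h or 8 h replicate 2, 0.505% without CTRL 0 h replicate 3, 1.01% without CTRL 8 h replicate 3), 0 to 0.505% for CTRL at 24 h (any of its 6 libraries), 5.56 to 7.58% for inducible cells at 8 h (5.56% without CEBPD 0 h replicate 2 or CEBPD 8 h replicate 1 or 2), 1.01 to 2.53% at 24 h (1.01% without CEBPD 0 h replicate 3, 1.52% without CEBPD 24 h replicate 3), 0 to 2.02% and 0 to 0.505% for the interactions at 8 and 24 h, and a median at 0 h of -0.264 to -0.234. Replicate numbers did not pair the libraries (mean correlation of deviations 0.0243 for same-numbered and -0.0122 for other pairs), and with the replicate as a block 67.7% of the genes were called over the 4 time points and 51.5% at 0 h. At 12731237 to 22598595 counts per library, 3 counts correspond to 0.13 to 0.236 CPM, which limits genes at that level.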
